A study of Mus musculus with 24 samples.

Results

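The genes described here are 38 markers of astrocytes, the glial cells that clear glutamate, buffer ions and feed neurons, out of 52636 gene identifiers counted in mouse brain RNA. They were taken by name: 29 are identity genes, which resting astrocytes express, and 9 are reactive genes, which astrocytes raise after injury or inflammation. Each symbol matched 1 Ensembl identifier of the files through the GENCODE annotation of GRCm38, and all 38 had enough reads to be among the 19726 genes tested. The study asks how loss of EAAT2, the main glutamate transporter of the forebrain, acts after deletion in neurons and after deletion in astrocytes. It has 24 brain libraries, 6 mice per group, in a syn line and a gfap line. In the syn line the Cre-positive mice are given as syn-Cre+ EAAT2−/− and the Cre-negative mice as syn-Cre− EAAT2+/+. In the gfap line they are gfapCre+ EAAT2Δ/+ and gfap-Cre− EAAT2+/+. Cre recombinase removes DNA between its target sites, and the line names stand for the synapsin promoter of neurons and the Gfap promoter of astrocytes, so the gfap line uses the promoter of a gene that is itself among the 38. The sources used here give no age, sex, brain region or promoter fragment.

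Identity genes serve the everyday work of the astrocyte. Sox9, Id3, Id4 and Hopx regulate transcription, Fgfr3, Ednrb and Ntsr2 are receptors, Slc4a4, Slc7a10 and Slc39a12 carry bicarbonate, neutral amino acids and zinc, and enzymes such as Aldh1l1, Aldoc and Dio2 serve folate, sugar and thyroid hormone metabolism. Reactive astrocytes enlarge their intermediate filaments (Gfap, Vim), secrete acute-phase and matrix proteins (Serpina3n, Lcn2, Timp1) and raise surface proteins such as Osmr, the receptor subunit for oncostatin M, whose signal passes through gp130 to the transcription factor STAT3. In whole brain tissue, fewer cells of a type and less RNA per cell cannot be told apart.

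The promoter windows of Gfap, Serpina3n and Lcn2 are shown because Gfap and Lcn2 were the members whose levels from mouse to mouse were most like those of Serpina3n, as described further on. Each runs from 250 bases before to 50 bases after the gene start in RefSeq (build GRCm38.p6), read along the gene's own strand. They lie at chr11:102897151-102897450 (minus strand) for Gfap, chr12:104406458-104406757 (plus strand) for Serpina3n and chr2:32387690-32387989 (minus strand) for Lcn2. Capitals mark TTCCNGGAA, the palindrome that STAT proteins are known to bind, searched on both strands.
Gfap: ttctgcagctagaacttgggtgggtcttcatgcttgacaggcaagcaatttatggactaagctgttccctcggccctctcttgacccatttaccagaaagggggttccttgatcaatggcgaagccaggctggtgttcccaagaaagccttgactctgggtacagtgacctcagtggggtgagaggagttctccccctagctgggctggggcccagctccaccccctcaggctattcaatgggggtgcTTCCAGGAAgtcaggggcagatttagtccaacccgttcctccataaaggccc
Serpina3n: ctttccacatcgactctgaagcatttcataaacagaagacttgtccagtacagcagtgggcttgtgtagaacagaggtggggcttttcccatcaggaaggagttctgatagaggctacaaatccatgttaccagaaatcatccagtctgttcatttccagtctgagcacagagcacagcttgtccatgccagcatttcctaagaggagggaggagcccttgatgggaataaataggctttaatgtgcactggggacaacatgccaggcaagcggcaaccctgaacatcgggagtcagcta
Lcn2: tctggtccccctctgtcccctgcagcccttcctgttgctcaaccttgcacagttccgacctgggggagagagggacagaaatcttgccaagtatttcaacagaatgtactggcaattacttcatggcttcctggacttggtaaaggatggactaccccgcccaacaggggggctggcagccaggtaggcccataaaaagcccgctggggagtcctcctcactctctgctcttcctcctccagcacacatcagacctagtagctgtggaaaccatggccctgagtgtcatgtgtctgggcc
The Gfap window held 1 match, TTCCAGGAA, starting at position -2 from the gene start, and the other windows shown held none. Among 32851 RefSeq promoter windows of the same length, 377 held the motif, or 1.15%. Of the 38 genes, 35 had a window, with 42 windows in all. The motif was in 3 of these 42, which belong to Aldoc, Gfap and Steap4. The looser form TTCNNNGAA, which contains the stricter one, was found in 8.30% of all windows. It was in 5 of the 42, which belong to Acsbg1, Aldoc, Gfap, Ntsr2 and Steap4. A match describes letters in a window and does not show that a factor binds there.

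The libraries held 41596313 to 69652824 counts in genes. Slc1a2, which encodes EAAT2, stood at 2616 to 3235 CPM (counts of a gene divided by the scaled library total) in the libraries labelled syn-Cre-positive and 3227 to 3462 CPM in the syn Cre-negative ones, and at 3043 to 3855 and 2494 to 3980 CPM in the gfap line. It passed the test of a Cre difference in neither line (log2 fold change -0.14 and -0.02), and a gene-level count also takes reads from exons outside a deletion. Markers of choroid plexus, the tissue that makes cerebrospinal fluid, added up to 288 to 7346 CPM in syn libraries and 216 to 537 CPM in gfap libraries. In each syn group 3 of 6 libraries had more than 1000 CPM of its marker Ttr. Library 5 of the syn Cre-negative group stood apart with 7.46% ambiguous and 4.71% unaligned reads. Where a result rests on such libraries its value without them is given.

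Identity genes were abundant and steady, and most reactive genes were rare and variable. Per kilobase of exon, the mean level over all libraries ran from 4.11 CPM for Cbs to 727 CPM for Cst3, a protease inhibitor, among the identity genes, with a median of 28.7 CPM per kilobase. The reactive genes had a median of 0.776 CPM per kilobase, and only Gfap (115), Serpina3n (28.4) and Vim (8.503 CPM per kilobase) stood above the lowest identity gene. Steap4, a metalloreductase, was lowest at 0.0833 CPM per kilobase, with 4 to 43 reads per library. The SD between mice of a group, on the log2 scale, had a median of 0.12 in identity genes, 0.32 in reactive genes and 0.18 in all genes tested. This SD includes counting noise, which weighs more in genes with few reads, and the classes were not matched for level. The identity gene Mt2, which had a low count, had 0.37 and the abundant reactive gene Gfap 0.14. Plpp3, a lipid phosphatase, was the steadiest member (0.05) and Lcn2, an iron-carrier-binding acute-phase protein, the most variable (1.04). The metallothionein genes Mt1 and Mt3, which bind zinc and copper, reached 141 and 204 CPM, against 3.28 CPM for Mt2. Of the 588 exon bases of Mt2, 432 are shared with the antisense gene Gm45774. Without a stated strand setting, it is not known whether reads over these bases were counted or set aside as ambiguous. The level of Mt2 may thus be too low.

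The comparison of Cre-positive with Cre-negative mice in the syn line asks what loss of EAAT2 in neurons did to astrocyte genes. None of the 38 members passed the test (edgeR quasi-likelihood, Benjamini-Hochberg adjusted p under 0.05), where 0.00507% of all genes tested did. At an unadjusted p under 0.05 there were 7 of 38 members and 922 of 19726 genes. The Cre-positive and Cre-negative ranges overlapped for every member, while they were apart for 0.203% of all genes tested. The median log2 fold change was -0.02 over identity genes, 0.01 over reactive genes and -0.00 over all genes tested. The median over reactive genes was -0.15 without Cre-positive replicate 6 and 0.16 without Cre-negative replicate 2, and without the latter that over identity genes was 0.01. Of the 29 identity genes, 27 had a 95% interval that lay within 0.5 of no change on the log2 scale, and among the 9 reactive genes 4 had one.

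Ednrb and Hopx came nearest to the threshold, and they were the identity genes with the largest differences. Ednrb, the endothelin B receptor, had a lowest, median and highest level of 50.2, 63.2 and 65.3 CPM in syn Cre-positive mice and 43.1, 48.7 and 52.2 CPM in syn Cre-negative mice. Hopx, a small homeodomain cofactor that does not itself bind DNA, had 38.2, 52.2 and 53.7 CPM against 32.5, 35.7 and 42.8 CPM. For each gene 5 of 6 Cre-positive mice lay above every Cre-negative mouse and 1 lay within their range. The log2 fold change was 0.34 for Ednrb (95% interval 0.21 to 0.48, SE 0.07) and 0.44 for Hopx (0.27 to 0.61, SE 0.08), each with an adjusted p of 0.0697 in edgeR. The mouse within the range differed, being replicate 1 for Ednrb and replicate 5 for Hopx. For each gene this mouse was picked from these same values as the one against the difference. A smaller p without it is therefore no support for a change. Without that replicate Ednrb had an adjusted p of 0.00573 and Hopx of 0.00214, and Hopx also passed without Cre-negative replicate 3 (0.0348). Of the 12 edgeR fits with 1 library left out, Ednrb passed in 1 and Hopx in 2, with adjusted p up to 0.265 for each. DESeq2 called both genes (adjusted p = 0.00202 each), and limma-voom called Hopx (0.0186) and not Ednrb. These tools called more genes in all, 14 and 8, than the 1 gene called by edgeR. Hopx shares 412 of its 1516 exon bases with the antisense gene Hopxos, which held 2 to 15 reads per library against 1512 to 2968 for Hopx.

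**Figure D1:**
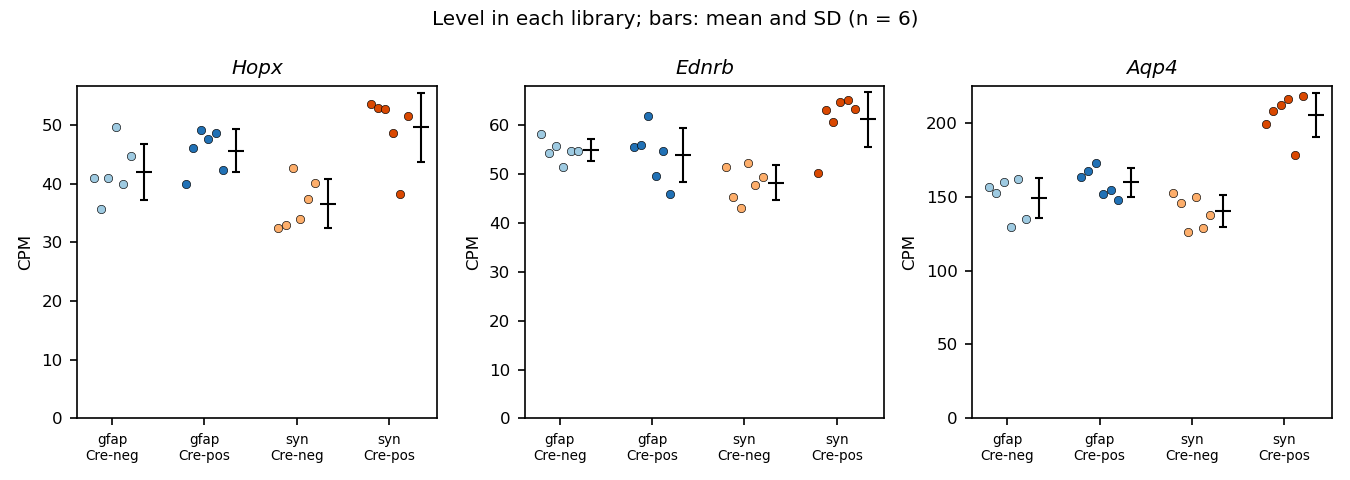
Level of Hopx, Ednrb and the water channel gene Aqp4 in CPM (vertical axes, starting at 0) in each library of the 4 groups, with the group mean and SD as bars (n = 6). For Hopx and Ednrb 5 of 6 syn Cre-positive libraries lie above all syn Cre-negative ones, and for Aqp4 all 6 do.

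The remaining identity genes differed little in the syn line. Cbs, which makes cystathionine and hydrogen sulfide, had a log2 fold change of 0.13 (unadjusted p = 0.0418, edgeR), and Ndrg2 one of -0.11 (unadjusted p = 0.0583). Cbs had lowest, median and highest levels of 29.2, 33.6 and 36.3 CPM in Cre-positive mice and 28.6, 29.4 and 33.6 CPM in Cre-negative mice, which overlap. Ndrg2 had 629, 693 and 739 CPM against 690, 746 and 798 CPM, which overlap too. Classical markers gave intervals close to no change, such as S100b (0.04, interval -0.07 to 0.14), Aldh1l1 (-0.12, -0.25 to 0.01) and Sox9 (0.09, -0.08 to 0.25 on the log2 scale).

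Reactive genes did not move in 1 direction in the syn line: 5 of 9 had a positive and 4 a negative log2 fold change. Gfap had levels of 511, 541 and 689 CPM (lowest, median, highest) in Cre-positive mice and 429, 464 and 629 CPM in Cre-negative mice, with replicate 2 of the Cre-negative group far above the other 5. S1pr3, a receptor for sphingosine-1-phosphate, had 8.76, 9.62 and 12.9 CPM against 6.98, 8.52 and 9.04 CPM, and 4 of 6 Cre-positive mice exceeded every Cre-negative one. In edgeR the log2 fold change was 0.22 for Gfap (adjusted p = 0.781) and 0.25 for S1pr3 (0.841), neither past the threshold.

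Lcn2 and Osmr pointed the other way. Lcn2 had 0.249, 0.290 and 0.748 CPM in syn Cre-positive and 0.173, 0.298 and 3.40 CPM in syn Cre-negative mice. The 2 groups had almost equal medians, and Cre-negative replicates 2 and 3, with 112 and 157 reads against 7 to 20 in the other 4, set the difference of the means. Osmr had 4.47, 6.18 and 7.60 CPM against 5.99, 7.02 and 10.96 CPM, with Cre-negative replicate 2 the highest. Their log2 fold changes were -1.59 (SE 0.61, adjusted p = 0.932) and -0.29 (SE 0.14, adjusted p = 0.9997) in edgeR. Without Cre-negative replicate 3 the value of Lcn2 was -0.80, and without Cre-negative replicate 2 that of Osmr was -0.16. Serpina3n, the most abundant secreted protein gene of the reactive set, had 48.1, 57.4 and 85.2 CPM in Cre-positive and 42.5, 54.5 and 84.4 CPM in Cre-negative mice, a log2 fold change of 0.06 with an interval of -0.24 to 0.36. Without the 6 libraries rich in Ttr, the median log2 fold change of the reactive genes was -0.32. That fit kept Cre-positive replicates 1, 3 and 4 and Cre-negative replicates 1, 2 and 5. It left out Cre-positive replicate 6, the highest of its group for 7 reactive genes. It kept Cre-negative replicate 2, the highest of its group for 5.

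**Figure D2:**
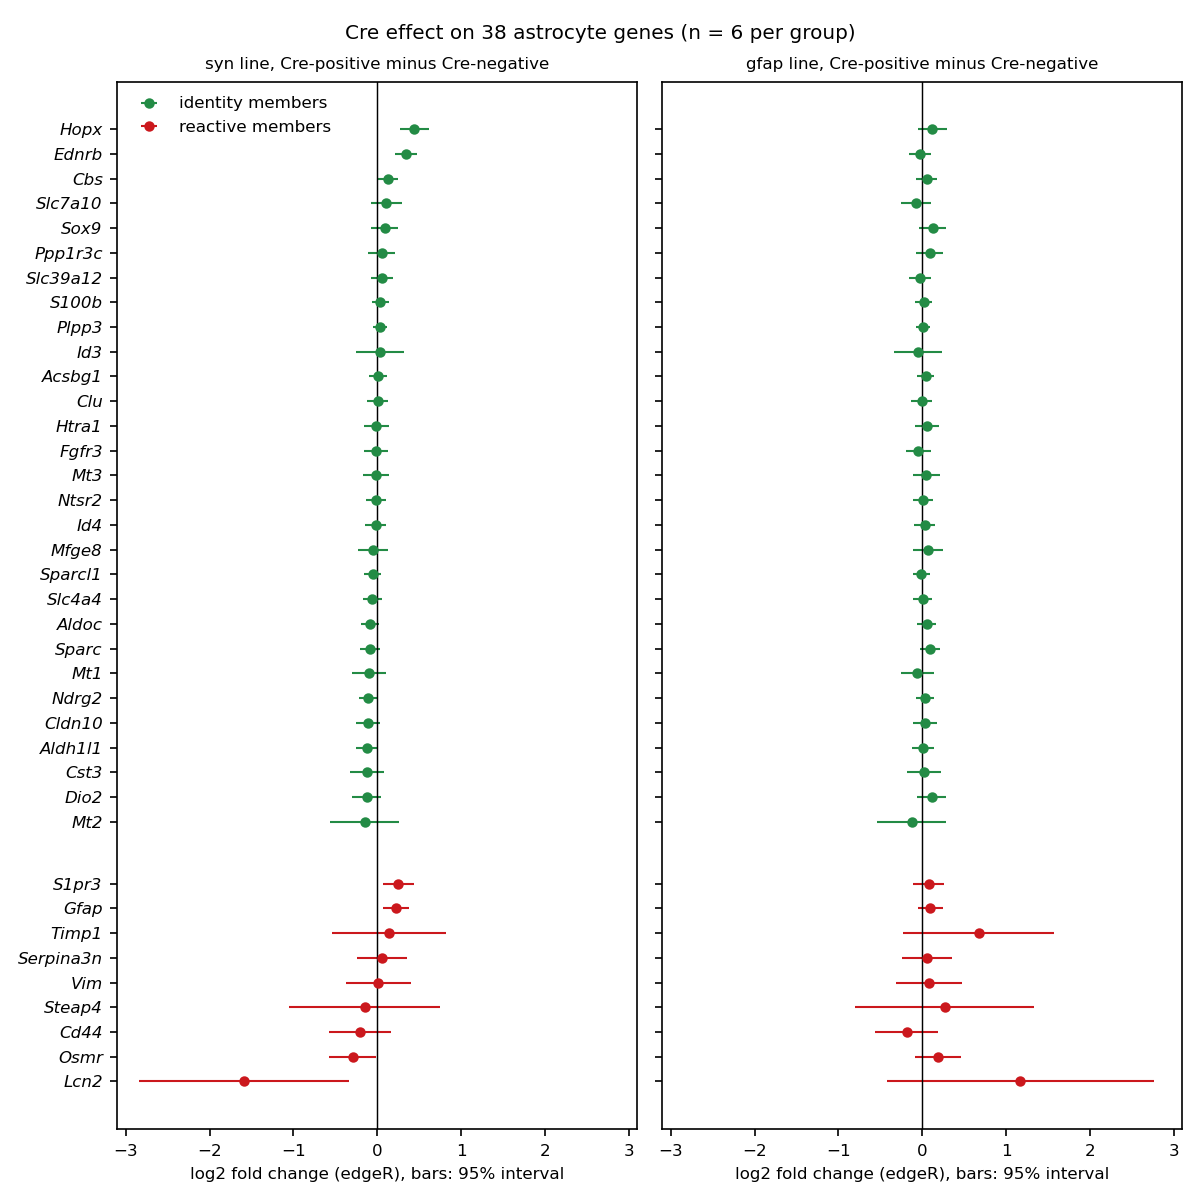
Log2 fold change of Cre-positive against Cre-negative mice (horizontal axis, edgeR, bars are 95% intervals) for the 38 genes in the syn line (left) and the gfap line (right), with identity genes in green and reactive genes in red. Hopx and Ednrb lie farthest to the right among the identity genes of the syn line, and the intervals of Lcn2, Steap4 and Timp1 are the widest.

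In the gfap line the Cre-positive mice are given as EAAT2Δ/+, with a wild-type allele kept, and not as EAAT2−/−. The same comparison there asks what this partial deficiency did to the markers of astrocytes themselves. No member passed the test in edgeR, where 0.0101% of all genes tested did, and none had an unadjusted p under 0.05, against 590 of 19726 genes. DESeq2 and limma-voom also called 0 members. Log2 fold changes of identity genes ran from -0.13 to 0.13 with a median of 0.02, and 28 of 29 had an interval within 0.5 of no change. Those with the smallest p were Sparc, a matrix glycoprotein (0.09), Sox9 (0.13), Hopx (0.12) and Dio2 (0.11), each with an adjusted p of 0.9997. Sparc had lowest, median and highest levels of 280, 303 and 353 CPM in Cre-positive and 268, 296 and 305 CPM in Cre-negative mice. For Sox9 these were 27.0, 29.2 and 32.5 against 22.3, 26.7 and 33.1 CPM. Hopx had 39.9, 46.8 and 49.2 against 35.7, 41.0 and 49.7 CPM, and Dio2 50.9, 56.3 and 59.7 against 40.5, 53.0 and 56.9 CPM. For all 4 genes the groups overlapped, and single libraries moved each value. Without Cre-negative replicate 4 the log2 fold change was 0.07 for Sox9 and 0.05 for Dio2, without Cre-negative replicate 2 it was 0.08 for Hopx and 0.19 for Sox9, and without Cre-positive replicate 5 it was 0.05 for Sparc. The median over identity genes lay between 0.00 (without Cre-positive replicate 5) and 0.05 (without Cre-negative replicate 4).

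Among the reactive genes of the gfap line 8 of 9 had a positive log2 fold change, with a median of 0.10, beside -0.00 for all genes tested. Lcn2 was the only member whose groups did not overlap, as was the case for 0.198% of all genes tested in this line. It had 8 to 18 reads in Cre-positive and 0 to 9 reads in Cre-negative libraries, or 0.160, 0.194 and 0.364 CPM (lowest, median, highest) against 0, 0.109 and 0.158 CPM. Its log2 fold change of 1.17 had an interval of -0.42 to 2.76 and an unadjusted p of 0.142 in edgeR. Timp1, an inhibitor of metalloproteinases, had 0.0607, 0.170 and 0.373 CPM against 0.0612, 0.0980 and 0.172 CPM (log2 fold change 0.67, SE 0.44). Without Cre-positive replicate 4 this value was 0.35. Osmr had 5.60, 7.28 and 8.12 CPM in Cre-positive and 4.99, 6.13 and 7.93 CPM in Cre-negative mice, and Gfap 440, 450 and 485 against 378, 424 and 455 CPM. Both overlapped, and their log2 fold changes were 0.19 and 0.10.

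The difference between the Cre effects of the lines was tested directly, although their genotypes differ too (EAAT2−/− in the syn and EAAT2Δ/+ in the gfap line). No member passed in edgeR, nor in DESeq2 or limma-voom, and 0.0101% of all genes tested did in edgeR. At an unadjusted p under 0.05 there were 5 members and 691 genes. Ednrb had the smallest p, with a log2 fold change in the syn line that was 0.37 above that in the gfap line (interval 0.18 to 0.56, unadjusted p = 0.000438, adjusted p = 0.9996). For Hopx the difference was 0.32 (0.08 to 0.56), for Dio2 -0.24 (-0.48 to 0.01) and for Sparc -0.18 (-0.34 to -0.01). Lcn2 had a difference of -2.76 (-4.79 to -0.73) and Osmr one of -0.49 (-0.88 to -0.09), since their Cre-positive means were below the Cre-negative ones in the syn line and above them in the gfap line. S1pr3 and Gfap had differences of 0.18 and 0.12, whose intervals included 0, and both were below 0 without the libraries rich in Ttr (-0.02 and -0.06). Without syn Cre-positive replicate 6 they were 0.10 and 0.06, and without syn Cre-negative replicate 2 that of Gfap was 0.21. The fit without the libraries rich in Ttr left out the first of these mice and kept the second.

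Libraries of the syn and gfap lines differed at many more genes than those of Cre-positive and Cre-negative mice. Reads outside annotated exons made up 7.52% to 11.09% in the syn and 4.47% to 6.37% in the gfap libraries, without overlap. The labels give no batch, and the part of this gap in the differences between lines was not tested. Between the Cre-negative groups 11 of 38 members passed the test in edgeR, 6 higher and 5 lower in the syn line, where 31.2% of all genes tested passed, so the share of the members was near that background. All 6 higher members but Slc7a10 were reactive: Timp1, Lcn2, Steap4, Vim and Gfap. The lower ones, Plpp3, Sparcl1, Mfge8, Ednrb and Aldoc, were all identity genes. The median log2 fold change was -0.05 over identity genes, 0.28 over reactive genes and -0.02 over all genes tested, and all 9 reactive genes had a positive value. Without syn replicate 2 or 3 the count was 6, and without gfap replicate 5 it was 7. Timp1, Lcn2, Plpp3 and Sparcl1 passed whichever of the 12 libraries was left out.

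Timp1 and Lcn2 had the largest differences between the Cre-negative groups. Timp1 had 0.389, 0.556 and 1.66 CPM (lowest, median, highest) in syn and 0.0612, 0.0980 and 0.172 CPM in gfap Cre-negative mice. The groups did not overlap for Timp1, Lcn2 and Plpp3, against 11% of all genes tested. Timp1 rose by 2.71 on the log2 scale (6.55-fold, SE 0.40, adjusted p = 2.43e-05), from 4 to 10 reads per library to 17 to 86. Lcn2 rose by 3.47 (11.1-fold, SE 0.71, adjusted p = 0.00082), of which syn replicates 2 and 3 held most reads. Without replicate 3 its log2 fold change was 2.68 (adjusted p at most 0.00261 without any 1 library). Timp1 lies within an intron of Syn1, on the other strand, and shares no exon bases with it, and Syn1 itself stood at 473 to 618 CPM over all 24 libraries. Without a stated strand setting for the counting, reads from this intron of Syn1 cannot be told apart from reads of Timp1. Their part was not tested.

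Steap4, Vim and Gfap also rose between the Cre-negative groups. Steap4 had 0.183, 0.280 and 0.930 CPM in syn and 0.0878, 0.1203 and 0.195 CPM in gfap Cre-negative mice, a rise of 1.66 on the log2 scale (adjusted p = 0.0103), and without syn replicate 3 it was 1.24 (0.0518). Vim had 38.01, 42.6 and 69.9 CPM against 26.8, 31.6 and 43.8 CPM, a rise of 0.51 (adjusted p = 0.0445, edgeR). The call for Vim was lost when any of 9 of the 12 libraries was left out, namely syn replicates 1 to 4 and gfap replicates 1, 2, 3, 5 and 6, with adjusted p values up to 0.140. Gfap had 429, 464 and 629 CPM against 378, 424 and 455 CPM, a rise of 0.20 (adjusted p = 0.0430). The ranges of all 3 genes overlapped. The call for Gfap was lost without syn replicate 1, 2 or 3 or gfap replicate 1, 2 or 6, and its value fell to 0.11 (adjusted p = 0.187) without syn replicate 2.

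Identity genes differed by smaller amounts between the Cre-negative groups. Plpp3 had 286, 300 and 311 CPM in syn and 315, 342 and 358 CPM in gfap mice, a log2 fold change of -0.18 (adjusted p = 0.00149), with no overlap. Sparcl1, a secreted protein that promotes synapse formation, had 1604, 1776 and 1850 CPM against 1836, 2063 and 2151 CPM, and 5 of 6 syn mice lay below every gfap mouse (-0.21, adjusted p = 0.00257). Mfge8, a bridging protein for phagocytosis, had 115, 159 and 181 CPM against 169, 178 and 196 CPM (-0.26, adjusted p = 0.0250). Ednrb had 43.1, 48.7 and 52.2 CPM against 51.5, 54.8 and 58.3 CPM (-0.19, adjusted p = 0.0314). Aldoc, the aldolase of astrocyte glycolysis, had 720, 813 and 860 CPM against 847, 879 and 933 CPM (-0.14, adjusted p = 0.0488). In each of these last 3 genes the ranges overlapped. The call for Mfge8 was lost without syn replicate 2 or 3 or gfap replicate 4 or 5, and that for Ednrb without syn replicate 2 or 3 or gfap replicate 1, 3 or 5 (adjusted p up to 0.0807 and 0.0819). That for Aldoc was lost without any of syn replicates 1 to 4 or gfap replicates 1, 3, 4, 5 and 6 (up to 0.128).

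Slc7a10, a transporter for serine, glycine and other small amino acids, was the only identity gene that passed as higher in the syn line among Cre-negative mice. It had 21.5, 24.9 and 30.2 CPM in syn and 18.5, 21.4 and 23.1 CPM in gfap mice, a rise of 0.28 on the log2 scale (adjusted p = 0.0195). The groups overlapped, and the call was lost without syn replicate 6 (0.22, adjusted p = 0.0635). Over both syn groups Slc7a10 ran from 25.4 to 33.99 CPM in the 6 libraries rich in Ttr and from 21.5 to 26.1 CPM in the other 6, and without the former the difference was 0.14 (adjusted p = 0.235). Slc7a10 also shares 377 of its 2111 exon bases with Lrp3 on the other strand, which held 2780 to 5023 reads per library against 888 to 1650 for Slc7a10. The part of either in the result was not tested.

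Between the Cre-positive groups 14 of 38 members passed in edgeR, 5 higher and 9 lower in the syn line, where 27.5% of all genes tested passed. The higher members were Timp1, Gfap, S1pr3, Slc7a10 and Ednrb, and the lower ones, Aldoc, Sparcl1, Sparc, Mfge8, Plpp3, Ndrg2, Mt3, Cldn10 and Dio2, were all identity genes. Median log2 fold changes were -0.11 over identity genes, 0.32 over reactive genes and -0.02 over all genes tested. For 7 members the groups did not overlap, against 13.3% of all genes tested: Timp1, Gfap and S1pr3 among the reactive and Slc7a10, Aldoc, Plpp3 and Sparcl1 among the identity genes. Without gfap replicate 5 the count was 9, as Ndrg2, Cldn10, Dio2, Mt3 and S1pr3 no longer passed.

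Timp1 again had the largest difference, with 0.577, 0.765 and 1.23 CPM in syn and 0.0607, 0.170 and 0.373 CPM in gfap Cre-positive mice (log2 fold change 2.18, 4.52-fold, adjusted p = 0.000164). Gfap had 511, 541 and 689 CPM against 440, 450 and 485 CPM, a rise of 0.32 (adjusted p = 0.00263). S1pr3 had 8.76, 9.62 and 12.9 CPM against 8.04, 8.39 and 8.61 CPM (0.26, adjusted p = 0.0322). All 3 were higher in every syn mouse than in any gfap mouse. The call for S1pr3 was lost without syn replicate 5 or 6 or gfap replicate 4 or 5 (adjusted p up to 0.0965), and also without the libraries rich in Ttr (0.14, adjusted p = 0.313).

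Slc7a10 had 22.8, 25.7 and 33.99 CPM in syn and 18.4, 19.8 and 22.4 CPM in gfap Cre-positive mice (0.46, adjusted p = 0.000507). Aldoc had 690, 758 and 799 CPM against 803, 898 and 1028 CPM (-0.28, adjusted p = 0.000602). Sparcl1 had 1472, 1728 and 1825 CPM against 1918, 2044 and 2128 CPM (-0.26, adjusted p = 0.000633). These 3 groups of values did not overlap between the lines. Sparc had 236, 258 and 297 CPM against 280, 303 and 353 CPM (-0.27, adjusted p = 0.00114), and Mfge8 133, 142 and 168 CPM against 168, 190 and 204 CPM (-0.38, adjusted p = 0.0023), and in each 5 of 6 syn mice lay below all gfap mice. None of these 5 calls, nor those for Timp1, Gfap and Plpp3 (-0.16, adjusted p = 0.00517), was lost when any 1 of the 12 libraries was left out. Such a fit keeps most of the libraries rich in Ttr. Without all of those, fewer members passed between the Cre-positive groups, as given at the end, and all genes called went from 5416 to 2259. Among syn libraries Slc7a10 ran higher in those rich in Ttr, as given above. The other called identity genes had log2 fold changes of -0.19 (Ndrg2), -0.25 (Mt3), -0.23 (Cldn10, a claudin), -0.24 (Dio2) and 0.18 (Ednrb). Each of these was lost without at least 1 library: Mt3 without gfap replicate 5, Ndrg2 without that or syn replicate 6, and Cldn10 without either or gfap replicate 4. Dio2 was lost without syn replicates 3 to 6 or gfap replicate 2, 3, 5 or 6, and Ednrb without syn replicates 2 to 5 or gfap replicate 4 or 6.

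The comparisons of Cre-negative and of Cre-positive mice between lines share no library. Slc7a10, Aldoc, Plpp3, Mfge8, Sparcl1, Gfap and Timp1 passed in both with the same direction. These 7 are 63.6% of the members called in Cre-negative mice and 50% of those called in Cre-positive mice, beside 63.8% and 72.6% for all genes tested. Ednrb passed in both with opposite signs, -0.19 in Cre-negative and 0.18 in Cre-positive mice, which 2 genes of all those tested did. Both of its calls were lost without some single libraries, as given above.

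**Figure D3:**
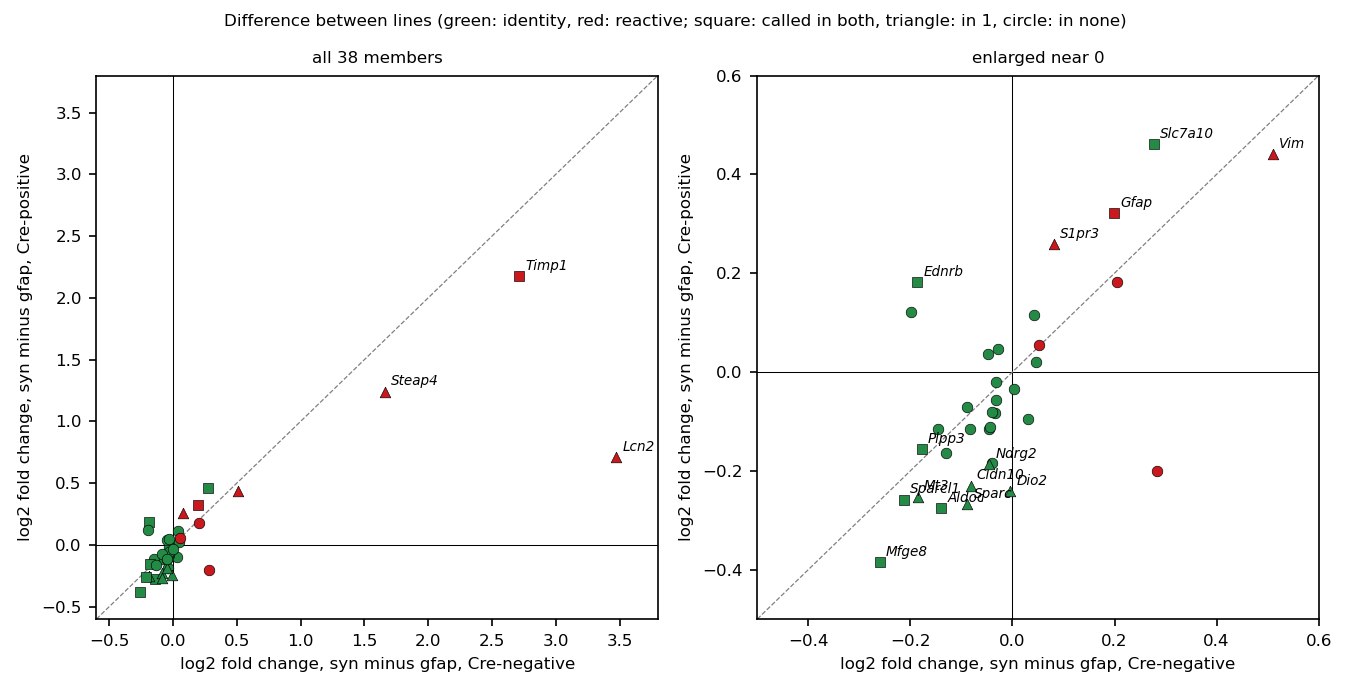
Log2 fold change of the syn against the gfap line in Cre-negative mice (horizontal) and Cre-positive mice (vertical) for all 38 genes (left) and enlarged near 0 (right), with identity genes in green, reactive genes in red, and squares for genes that passed in both comparisons. Timp1 lies near the dashed line of equal change at 2.71 and 2.18, Lcn2 far below it at 3.47 and 0.71, and Ednrb lies on opposite sides of 0.

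Markers of several other cell types also differed between the lines, and their part in the results above was not tested. Of all genes tested, 31.2% passed in Cre-negative mice (14.6% higher, 16.6% lower in the syn line). In Cre-positive mice 27.5% did (12.8% higher, 14.7% lower). Summed ependymal markers were 19.7 to 45.2 CPM in syn and 6.48 to 15.2 CPM in gfap libraries, and all 6 passed in both line comparisons. All 10 choroid plexus markers passed as higher in the syn line in Cre-negative mice and 8 of 10 in Cre-positive mice. Oligodendrocyte markers summed to 5002 to 7706 CPM in the syn and 3379 to 4980 CPM in the gfap line (5 and 6 of 7 called higher), and blood markers to 57.4 to 141 and 43.8 to 91.3 CPM (2 and 1 of 5 called higher). Lower in the syn line were neuronal markers, at 5712 to 6629 against 6773 to 8021 CPM (6 and 4 of 7 called), and endothelial markers, at 197 to 235 against 234 to 305 CPM (5 and 7 of 9 called). Of the mural, microglial and meningeal lists, 1 of 6, 1 of 7 and 1 of 7 markers passed in Cre-negative mice, lower, lower and higher, and 1 of 6 lower, 2 of 7 lower and 0 of 7 in Cre-positive mice. The shares called of these last lists were near or below the share of all genes tested that passed in either direction. In the Cre comparisons of either line no marker on these lists passed. No marker of any list was at 0 in every library. Without the libraries rich in Ttr, the syn Cre-negative group kept only replicates 1, 2 and 5. Replicate 2 was the highest of these for Timp1, Lcn2, Steap4 and Vim. In that fit these genes passed between the Cre-negative groups, with log2 fold changes of 2.89, 3.22, 1.43 and 0.64. Timp1 (1.89) and Gfap (0.25) passed between the Cre-positive groups. The fit rests on few syn mice, and the call for Vim was lost without some single libraries, as given above.

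**Figure D4:**
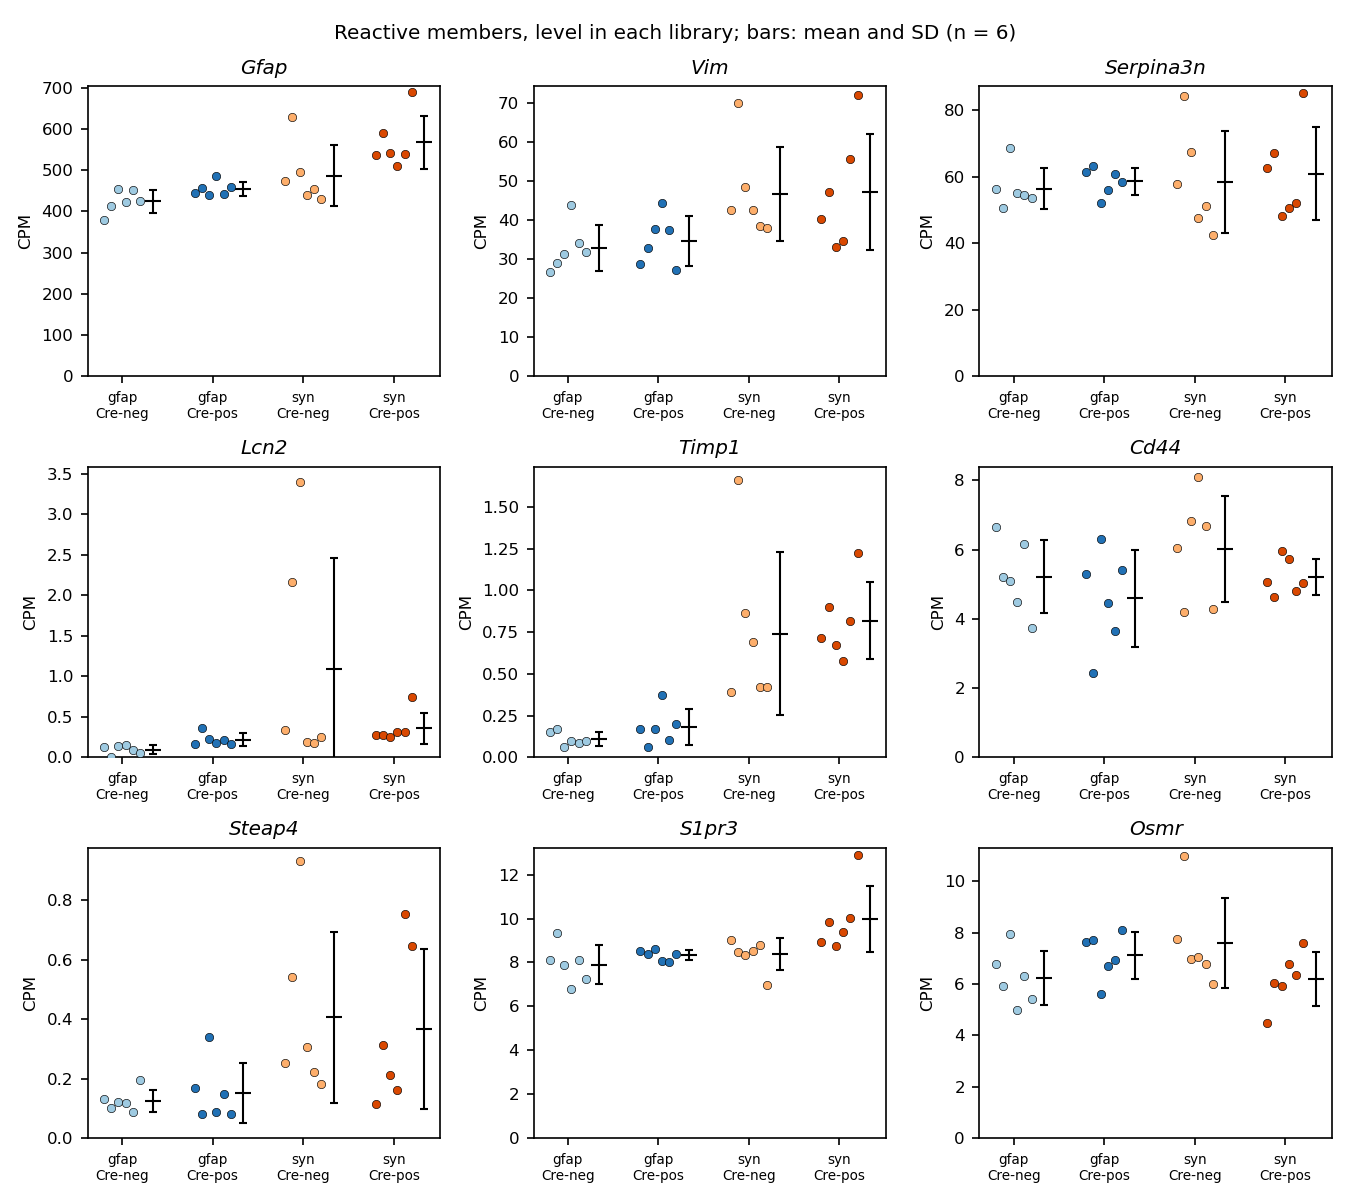
Level in CPM (vertical axes, starting at 0) of the 9 reactive genes in each library of the 4 groups, with the group mean and SD (n = 6). Timp1 is above 0.38 CPM in all syn libraries and below it in all gfap libraries, and the mean of Lcn2 in the syn Cre-negative group rests on 2 libraries at 2.16 and 3.40 CPM.

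Several reactive genes were at their highest in the same mice. In the syn Cre-positive group replicate 6 had the highest level of 7 of the 9 reactive genes, where it was the highest of its group for 20.3% of all genes tested. In the syn Cre-negative group replicate 2 was highest for 5 of 9 (19.2% of all genes), with 629 CPM of Gfap and 84.4 CPM of Serpina3n against at most 495 and 67.6 CPM in the other 5 mice. These mice differed in other tissues: choroid plexus markers summed to 6832 CPM in the former and 430 CPM in the latter. Meningeal markers summed to 338 CPM in the former, the highest of all libraries, and to 66.4 CPM in the latter, the lowest. Replicate 2 of the Cre-negative group had the highest oligodendrocyte and blood sums of all libraries, 7706 and 141 CPM. The part of these tissues in the reactive levels was not tested. Neither gfap group had a mouse that was highest for more than 3 of 9 reactive genes. For identity genes, replicate 4 of the gfap Cre-negative group was highest for 18 of 29, where it was highest for 28.9% of all genes, and replicate 1 of the gfap Cre-positive group was lowest for 17 of 29 (19.6% of all genes).

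After group means were removed, the members most like Serpina3n over the 24 libraries were Gfap (Spearman 0.70, Pearson 0.84), Lcn2 (0.62, 0.72) and the protease gene Htra1 (0.54, 0.52). Those most like Gfap were Serpina3n, Vim (0.62, 0.74) and Lcn2 (0.52, 0.59). These are descriptions over libraries that share depth and tissue makeup, and the mice named above contribute to them. Serpina3n itself, in spite of this spread, had nearly equal medians in the 4 groups: 57.4 CPM in Cre-positive and 54.5 CPM in Cre-negative mice of the syn line, beside 59.5 CPM and 54.8 CPM for gfap mice.

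**Figure D5:**
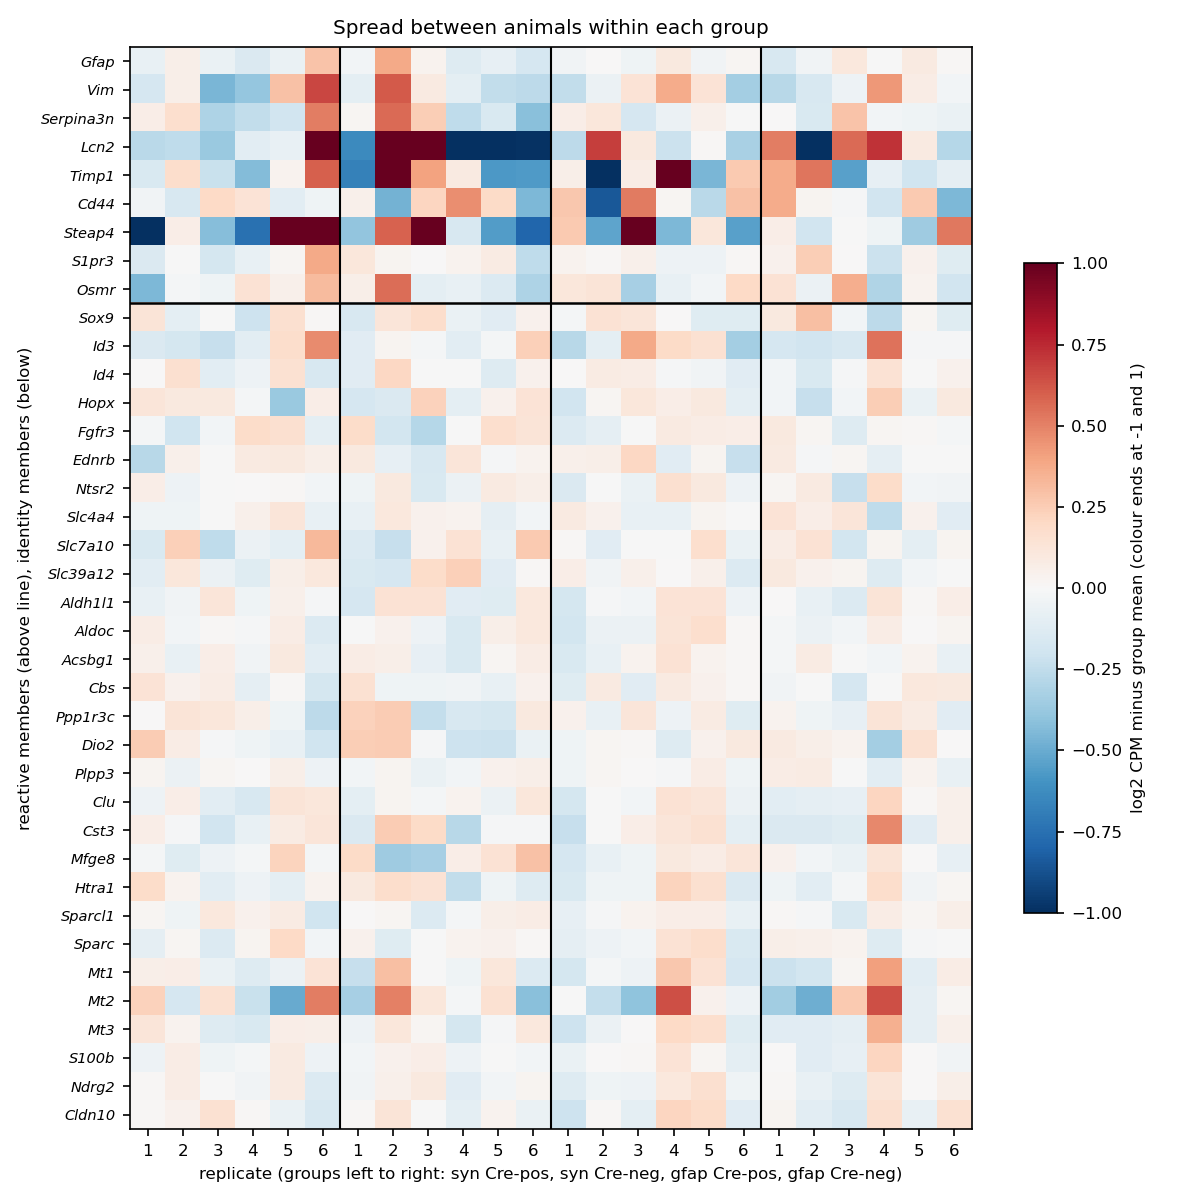
Deviation of each library from its group mean in log2 CPM (colour, ending at -1 and 1) for the 9 reactive genes (above the line) and the 29 identity genes (below), with libraries in columns by group. Columns for replicate 6 of the syn Cre-positive and replicate 2 of the syn Cre-negative group are red over most reactive genes, and identity genes are pale in most libraries.

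Further astrocyte genes outside the 38 gave the following. Of 20 other astrocyte genes 19 were tested, and Aqp4, the water channel of astrocyte endfeet, was the only gene of all those tested that passed in the syn Cre comparison in edgeR with the settings used here. It had 178, 210 and 218 CPM (lowest, median, highest) in syn Cre-positive and 126, 142 and 153 CPM in syn Cre-negative mice, without overlap, a rise of 0.55 on the log2 scale (SE 0.06, adjusted p = 2.03e-05, edgeR). In the gfap line it had 148, 159 and 173 against 130, 155 and 162 CPM (0.10, adjusted p = 0.9997). Between lines 1 gene of this list passed as higher and 5 as lower in Cre-negative mice, and 2 and 4 in Cre-positive mice, in each case 31.6% of the list and near the share of all genes tested (31.2% and 27.5%). Gpc5, a glypican (-0.37 and -0.33), and the urea transporter Slc14a1 (-0.26 and -0.35) were lower in both.

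Of 28 other reactive genes 26 were tested, and none passed in a Cre comparison, including Cxcl10, a chemokine (1.06 in the gfap line, unadjusted p = 0.0381). Between lines 4 passed as higher and 1 as lower in Cre-negative mice, and 4 and 2 in Cre-positive mice, or 19.2% and 23.1% of the list, below the shares of all genes tested (31.2% and 27.5%). Complement C3, which is secreted by reactive astrocytes and also made by other cells, was at 3.63 to 10.5 CPM in the syn and 0.273 to 2.63 CPM in the gfap line, with log2 fold changes of 2.05 and 2.05. Of 13 genes of the gp130 and STAT3 pathway 10 were tested, with 0 called in either Cre comparison. Between Cre-negative groups 1 was higher and 1 lower, and between Cre-positive groups 1 was higher and 2 lower. These are 20% and 30% of those tested, below and near the shares of all genes tested (31.2% and 27.5%). Tyk2, a Janus kinase, was higher (0.50 and 0.38) and Jak1 lower (-0.14 and -0.16) in the syn line in both. Of all genes tested, 48.6% had a positive log2 fold change in the syn Cre comparison. All 13 glucocorticoid-responsive genes had a negative one there, with a median of -0.37, and none passed. Hif3a had the smallest p (-1.33, adjusted p = 0.168). Of this list 5 genes were higher between the Cre-negative groups and 1 was lower between the Cre-positive groups, or 38.5% and 7.69% of the list. Of all genes tested, 14.6% passed as higher in the former and 14.7% as lower in the latter. In either direction 31.2% and 27.5% of all genes tested passed.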

How the data were processed

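Brain RNA was sequenced in 24 libraries, 6 mice per group, and replicates are mice, per the labels' protocols. As deposited, each library is a file of raw counts, whole numbers per Ensembl gene. HISAT2, HTSeq 0.6.0, DESeq2 1.6.3 and mm10 are named per the submitters' processing notes; a HISAT2 version, the annotation release and the strand setting of the counting are not stated there. The 5 summary lines of each file were left out. Symbols, coordinates and exon lengths came from GENCODE M21 (GRCm38) and matched 52403 of 52636 identifiers.

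CPM used TMM-scaled library totals. Genes kept by filterByExpr (19726) were fitted in edgeR 4.0.16 (R 4.3.3) with robust quasi-likelihood, 1 model of 4 groups over all 24 libraries with 20 residual degrees of freedom, and Benjamini-Hochberg adjustment over all genes tested. The Cre effect (positive minus negative) was estimated per line and subtracted between lines, and syn was set against gfap within Cre-negative and within Cre-positive mice. Calls are adjusted p under 0.05, and intervals are 95%. Depth and spread limit genes with few reads, chiefly Lcn2, Timp1 and Steap4. The 60 pairs of libraries within groups all differed beyond counting noise.

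The 38 genes, the lists (other astrocyte, other reactive, gp130 and STAT3, glucocorticoid-responsive, and markers of 9 other cell types) and the alternatives were chosen with earlier results of these data known. Values were given in full for the 4 identity and 4 reactive genes with the smallest p in each Cre comparison, and for the 5 identity and 4 reactive genes with the largest change among those called between lines. Others are given as values only. Alternatives were RLE and upper-quartile scaling, other filters on low counts, DESeq2 1.42.0, limma-voom (limma 3.58.1) with quality weights, only the groups compared, and leaving out libraries. The fits were tested on simulated data.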

Additional observations from a re-analysis of the deposited data

Results flagged for a closer look

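Of 152 combinations of a member and a group, 21 had 1 library farther from the other 5 than Dixon's 95% critical value for 6 samples allows, where chance gives about 1 in 20. Replicate 2 of the syn Cre-negative group accounts for 5 of them: Gfap at 629 CPM (429 to 495 CPM in the other 5), Vim at 69.9 (38.01 to 48.5), Timp1 at 1.66 (0.389 to 0.866), Osmr at 10.96 (5.99 to 7.75) and Sparc at 252.7 CPM (274 to 284). Replicate 4 of the gfap Cre-negative group also accounts for 5, all identity genes: Id3 at 39.7 CPM (23.8 to 27.0), Cst3 at 1305 (846 to 968), Mt3 at 273 (198 to 222), S100b at 143 (113 to 123) and Dio2 at 40.5 CPM (51.3 to 56.9).

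In the syn Cre-positive group replicate 6 was high in Lcn2 at 0.748 CPM (0.249 to 0.314) and S1pr3 at 12.9 CPM (8.76 to 10.01). Replicate 5 was low in Hopx at 38.2 CPM (48.7 to 53.7) and high in Mfge8 at 168 CPM (133 to 142), and replicate 1 was low in Ednrb at 50.2 CPM (60.7 to 65.3). Replicate 6 of the syn Cre-negative group was high in Id3 at 31.4 CPM (24.6 to 27.1) and low in S1pr3 at 6.98 CPM (8.35 to 9.04). In the gfap line single values stood apart for Mt2 in Cre-positive replicate 4 at 4.87 CPM (2.33 to 3.195), Lcn2 in Cre-positive replicate 2 at 0.364 (0.160 to 0.228), Steap4 in Cre-positive replicate 3 at 0.341 (0.0800 to 0.168) and Serpina3n in Cre-negative replicate 3 at 68.6 CPM (50.6 to 56.3).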

How the results depend on the processing

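In the syn Cre comparison 2 members (Ednrb and Hopx) were called with no filter on low counts and 2 by DESeq2, and 1 (Hopx) by limma-voom and 1 (Hopx) without the libraries rich in Ttr; leaving out 1 library gave 0 to 1. All genes called there were 5, 14, 8 and 3 under these settings. The gfap Cre comparison and the difference of Cre effects gave 0 under every alternative. Between Cre-negative groups 5 members were called with at least 1 CPM in 6 libraries, 6 in a fit of only the 2 groups and 6 without syn Cre-negative replicates 2 and 5 and gfap Cre-negative replicate 4, an alternative chosen after seeing the data; leaving out 1 library gave 6 to 11. All genes called went from 6161 to 4846, 4296 and 4298 under the first 3 of these, and to 4878 to 6370 with 1 library left out. Between Cre-positive groups 7 were called without the libraries rich in Ttr, where all genes called went from 5416 to 2259, and leaving out 1 library gave 9 to 15 (3978 to 5239 of all genes). Without those libraries the difference of Cre effects reversed for S1pr3 (-0.023) and Gfap (-0.061), and the median of the reactive genes moved to -0.32 in the syn Cre comparison and -0.56 in the difference. The syn groups were then Cre-positive replicates 1, 3 and 4 and Cre-negative replicates 1, 2 and 5. RLE and upper-quartile scaling gave 9 (6 higher, 3 lower) and 8 (6 and 2) members between Cre-negative groups and 13 (5 and 8) and 10 (5 and 5) between Cre-positive groups, with the median of all genes shifted by under 0.1. Of the other values for single genes and medians, 411 were unchanged by the rule used, 16 fell short of the threshold and 6 passed newly. For a single gene the rule was the same direction and side of the threshold. For a median it was a shift smaller than the SD between mice, whatever its sign. The causes were not tested. No paired analysis was possible because replicate numbers follow accession order and the labels give none.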
